A study of Homo sapiens with 2 samples.

Results

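LTB, which encodes lymphotoxin β, and TNF, which encodes tumor necrosis factor, are 2 of the 16251 genes in the count table, and were taken by symbol and followed by library, deposited cluster, deposited cell-cycle phase and single cell. The cells came from the human breast cancer line MDA-MB-453, which the labels call triple-negative and wild type. One culture received vehicle (water) and one received 10 ng/ml of IL1β and TNFα, both for 24 hours by the labels (a legend in the study gives a longer time), and each gave 1 droplet library of 3′ mRNA ends in which every captured molecule carries a unique molecular identifier (UMI). The added TNFα was protein, so the counts below are those of mRNA made by the cells. With 1 library per condition there is no replicate, so no test was made between conditions. Ranges in parentheses are exact 95% intervals for counting error alone, and limits from a count of 0 take 3 counts, about the one-sided 95% limit.

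Both genes belong to the TNF superfamily of trimeric ligands. Lymphotoxin β is a membrane protein that anchors lymphotoxin α at the cell surface, where the heterotrimer engages LTBR, a receptor best known for noncanonical NF-κB signaling and the organization of lymphoid tissue. TNF is made as a membrane protein that ADAM17 can release, and it acts through TNFRSF1A and TNFRSF1B. In the body both are mostly thought of as leukocyte products, and both are known NF-κB target genes.

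The genes are neighbors in the MHC class III region. In GRCh38 with GENCODE 44, TNF (ENSG00000232810) lies on the plus strand at chr6:31575565-31578336 and LTB (ENSG00000227507) on the minus strand at chr6:31580525-31582522, each with 4 exons. They point toward each other, with 2188 bases between their 3′ ends. LTA, the gene of lymphotoxin α, ends 1240 bases before TNF and was not analysed here. The 250 bases upstream of each start site (RefSeq, GRCh38.p14) are shown because both genes went from no UMI to many. LTB is printed from chr6:31582426-31582675 on the minus strand and TNF from chr6:31575315-31575564 on the plus strand, with capitals marking TATAAA and, on either strand, a loose NF-κB pattern of GGG, 5 bases of any kind and CC.
LTB: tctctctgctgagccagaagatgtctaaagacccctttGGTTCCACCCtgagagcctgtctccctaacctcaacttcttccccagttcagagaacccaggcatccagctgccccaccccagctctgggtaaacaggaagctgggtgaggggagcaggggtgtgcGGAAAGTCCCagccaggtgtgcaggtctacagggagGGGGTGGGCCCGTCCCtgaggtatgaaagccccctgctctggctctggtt
TNF: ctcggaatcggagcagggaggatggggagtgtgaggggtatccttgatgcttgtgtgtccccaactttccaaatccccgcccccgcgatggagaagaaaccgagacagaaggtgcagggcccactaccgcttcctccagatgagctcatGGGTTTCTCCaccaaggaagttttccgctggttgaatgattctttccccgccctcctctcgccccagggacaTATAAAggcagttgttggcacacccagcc

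The LTB sequence held 7 matches to the loose pattern, several of them overlapping, and the TNF sequence held 1, against 53.7% of 27305 promoters of this length with at least 1 match. The NF-κB consensus, a narrower form of the same pattern, matched once in LTB, as GGGACTTTCC on the opposite strand from 86 to 77 bases before the start. It had no match in this window of TNF, and 9.57% of promoters held it. TATAAA stood 29 to 24 bases before the TNF start and was not in the LTB window, and 11.1% of promoters held it. TGANTCA, an AP-1 pattern, was in neither window and in 6.60% of promoters. The RefSeq start of LTB lies inside the GENCODE gene, which begins further upstream. Thus 97 bases of the LTB window, the NF-κB consensus match among them, are within the GENCODE gene. The matches are letters in a window and were not tested for binding.

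The 3′ untranslated regions also differed. That of the TNF canonical transcript was 799 bases long and held 9 copies of ATTTA, the core of the AU-rich elements through which ZFP36-type proteins shorten mRNA life. The site below lies at chr6:31578016-31578036 on the plus strand, with capitals marking a run of 13 bases of overlapping ATTTA copies.
TNF AU-rich site: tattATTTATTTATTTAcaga
A run at least as long was found in 0.943% of 19512 genes, and at least 9 copies of ATTTA in 14.8%. The LTB region was 151 bases long with no ATTTA, as were 32.5% of genes.

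The vehicle library held 2822 cells and 58587996 UMIs, and the cytokine library 3163 cells and 69592446 UMIs, with a median of 20249 and 21508 UMIs per cell. Ribosomal protein genes took 29.5% and 26.9% of UMIs, and mitochondrial genes a median of 6.28% and 6.48% per cell. The phase calls differed widely: 1032, 1273 and 517 vehicle cells were called G1, S and G2M, against 2799, 324 and 40 cytokine-treated cells. Epithelial markers were among the measured genes, with EPCAM at 227 and 242 CPM (UMIs of the gene per 1000000 UMIs of the library) and ERBB2 at 129 and 208 CPM. Of 20 leukocyte markers, 14 were not analysed here, PTPRC, CD3E and MS4A1 among them. None of the other 6 reached 5 CPM, and they summed to 1.08 CPM in vehicle and 4.48 CPM with cytokines, where ITGAM was highest at 2.18 CPM. The libraries shared 8 cell barcodes.

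LTB mRNA was not detected in vehicle-treated cells and was abundant after IL1β + TNFα. The gene had 0 UMIs in the vehicle library and 19015 UMIs, or 273 CPM, in the cytokine library. Against the 3 UMIs that a count of 0 allows per library, this is at least 5336-fold higher. TNF likewise had 0 UMIs in vehicle, and 2617 UMIs, or 37.6 CPM, with cytokines, at least 734-fold higher. For either gene, 0 of 2822 vehicle cells with a UMI allows a share of up to 0.106%. In the cytokine library LTB was thus present at several times the UMI level of TNF, a comparison that transcript length does not enter because 3′ counting gives 1 UMI per molecule.

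Of the 9192 genes with at least 5 CPM in either library, 13 had no UMI in vehicle. LTB ranked first among them by cytokine level and TNF sixth. Between them stood SAA1 at 175 CPM, PI3 at 65.6 CPM, SERPINA3 at 53.3 CPM and LCN2 at 44.0 CPM, all products known from acute-phase or epithelial defense responses. LTB and TNF were among the 7 genes (0.0762% of those measured) with no vehicle UMI and 20 CPM or more with cytokines, and the seventh was IL32 at 20.2 CPM. By the rule used for all genes, a difference of at least 2-fold with the counting interval on the same side, 4.29% of genes were higher in the cytokine library and 7.48% were lower.

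The 2 mRNAs were spread over the treated cells in different ways. LTB UMIs were found in 1711 of 3163 cells, 54.1% (52.3 to 55.8), and TNF UMIs in 49.5% (47.8 to 51.3). After each cell was reduced at random to 15000 UMIs, so that depth is equal, LTB was detected in 48.6% of 3033 cells (46.8 to 50.4) and TNF in 39.4% (37.7 to 41.2). At 2 or more UMIs the shares were 31.6% for LTB and 13.5% for TNF, and 11.3% of cells had 10 or more LTB UMIs. Only 1 cell type was cultured, so there is no second type to show the share that free RNA alone would give, and the part of free RNA in cells with a single UMI was not tested.

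LTB was concentrated in a small number of cells. The median cell held 1 LTB UMI, the mean was 6.01, the 99th percentile was 82 and the highest cell held 184. No LTB UMI was found in 1452 cells and 1 UMI in 579, while 287 cells, 9.07% of the library, had 20 or more and together held 69.9% of all LTB UMIs. The 317 cells with the most LTB, the top 10%, held 72.7%. If every cell made LTB in proportion to its depth, 0.474% of cells would be without a UMI, against 45.9% observed.

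TNF was closer to even across cells. The mean was 0.827 UMIs, the median 0 and the maximum 7, with 889 cells at 1 UMI, 423 at 2, 232 at 3 to 4 and 23 at 5 or more. The cells without a UMI made up 50.5%, against 44.4% under a common rate. In the cells reduced to equal depth, the variance divided by the mean (1 for a common rate) was 27.9 for LTB and 1.24 for TNF. Of 708 genes within 2-fold of the LTB level, 1 had a higher ratio, the interferon-induced ISG15, and the median was 1.29. Of 2977 genes within 2-fold of the TNF level, 218 had a higher ratio, and the median was 1.05.

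**Figure D1:**
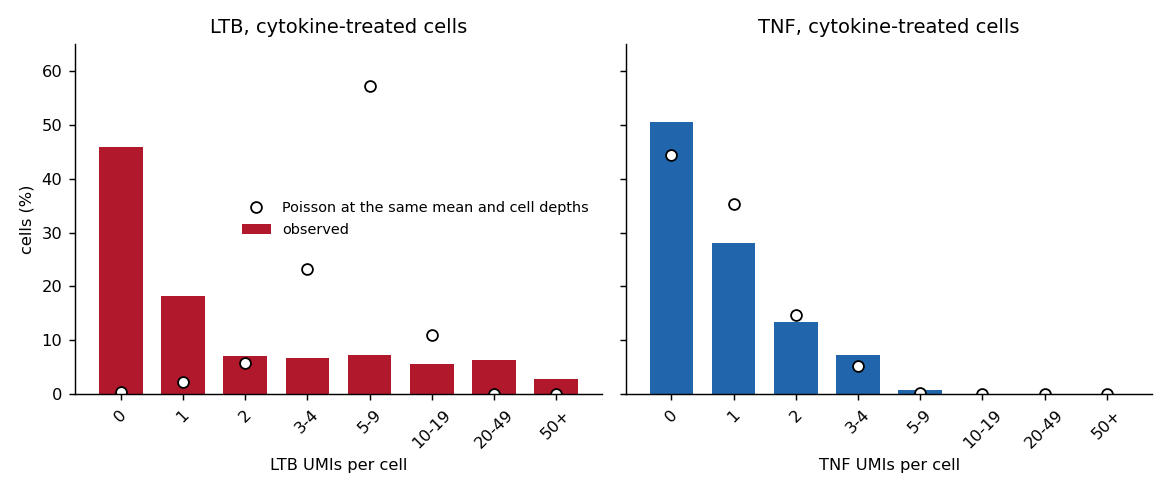
Percent of the 3163 cytokine-treated cells (vertical axis) by number of LTB (left) or TNF (right) UMIs per cell (horizontal axis), as bars. Circles give the percent expected under a Poisson model with the same mean and cell depths. LTB bars exceed the circles at 0, 1 and 2 UMIs and at 20 or more (45.9% of cells at 0, 0.474% under the model). TNF bars stay near the circles (50.5% and 44.4% at 0).

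The 6 deposited clusters, made from these same cells, differed in LTB level and in the share of LTB-positive cells. LTB was at 400 CPM (390 to 410) in cluster 1, 307 (294 to 321) in cluster 4, 288 (279 to 297) in cluster 3, 259 (247 to 272) in cluster 2, 198 (192 to 204) in cluster 0 and 49.9 (41.6 to 59.4) in cluster 5. The counting intervals of clusters 4 and 3 overlapped and those of the other neighbors in this order did not. These intervals leave out the spread of LTB between cells, whose variance divided by the mean was 27.9 at equal depth. Intervals that do not overlap therefore do not establish this order beyond that spread. The share of cells with LTB at equal depth ran from 57.2% in cluster 1 to 38.4% in cluster 5, a ratio of 1.49. The levels differed 8.02-fold, but a share has an upper limit and a level has none, so these ratios are unlike measures. Cells with 20 or more LTB UMIs made up 14.0% of cluster 1, 10.6% of cluster 4, 9.69% of cluster 3, 9.51% of cluster 2, 5.91% of cluster 0 and 0.746% of cluster 5. Cluster 5 was small, with 134 treated cells at a median depth of 18124.5 UMIs, and without it the levels differed 2.02-fold.

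TNF varied less. It ran from 42.6 CPM (37.7 to 47.9) in cluster 4 to 30.9 (24.4 to 38.6) in cluster 5, a ratio of 1.38, with clusters 2, 0, 1 and 3 between at 42.2, 39.1, 37.4 and 32.2 CPM. The intervals of each pair of neighbors in this order overlapped. Cluster 1, where LTB was high, was in the middle of this order by CPM, which the overlapping intervals leave unsettled. The detected share of TNF at equal depth was lowest in cluster 3, at 33.7% (29.9 to 37.8). By that share cluster 1 was highest, at 41.7% (38.0 to 45.4).

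By phase call, LTB was at 272 CPM (268 to 276) in the 2799 G1 cells, 291 (279 to 304) in the 324 S cells and 184 (156 to 215) in the 40 G2M cells. TNF was at 37.2 CPM (35.7 to 38.8), 42.3 (37.7 to 47.3) and 24.2 (14.8 to 37.3). At equal depth LTB was detected in 48.5% of G1, 50.6% of S and 44.1% of G2M cells, and TNF in 39.3%, 41.7% and 23.5%. The G2M values rest on 152 LTB and 20 TNF UMIs, so their intervals are wide, and no interval here covers the spread of LTB between cells. Both mRNAs were therefore found in cells of every called phase. Cluster and phase were not separate: 255 of the 284 cells of cluster 2 were called S.

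**Figure D2:**
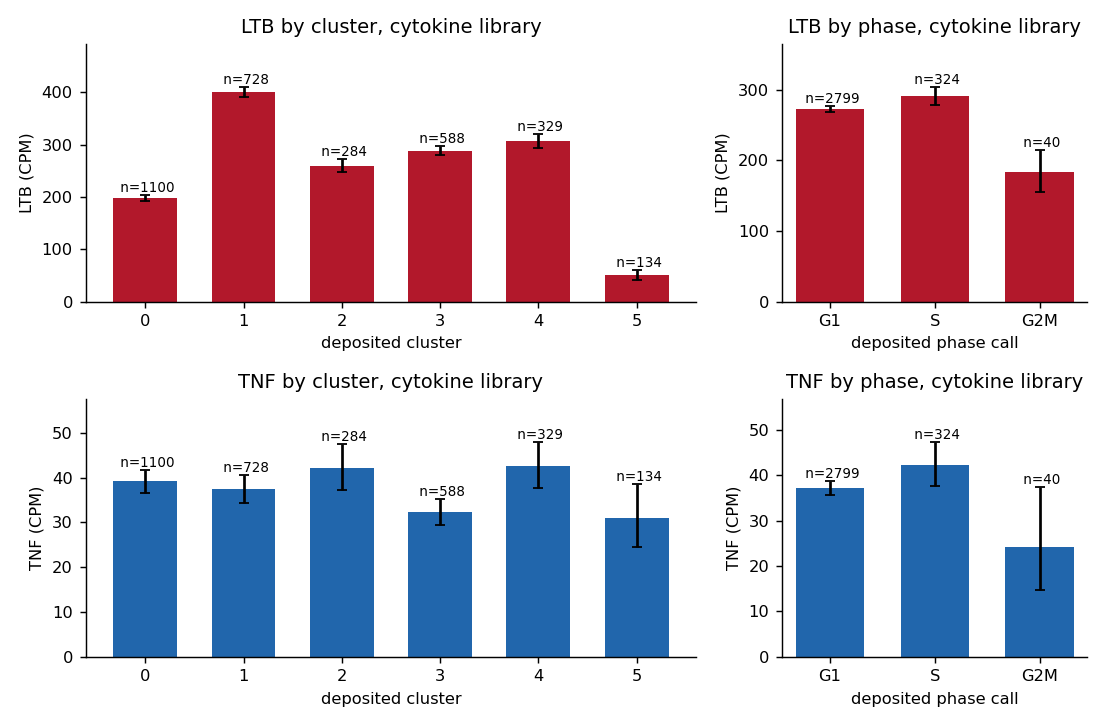
LTB (top) and TNF (bottom) in CPM (vertical axes, from 0) by deposited cluster and by phase call in the cytokine library, with the number of cells above each bar and exact 95% Poisson intervals as error bars. LTB falls from 400 CPM in cluster 1 to 49.9 CPM in cluster 5, while TNF stays between 30.9 and 42.6 CPM across clusters.

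Cells with LTB had TNF about as often as cells without it. At equal depth, 597 of 3033 cells had both mRNAs, 878 had LTB alone, 598 had TNF alone and 960 had neither. TNF was detected in 40.5% (38.0 to 43.0) of the 1475 cells with LTB and in 38.4% (36.0 to 40.8) of the 1558 without. The joint share was 19.7% (18.3 to 21.1), against 19.2% from the product of the 2 shares, a ratio of 1.03. By cluster the ratio was between 0.916 and 1.14 in clusters 0 to 4 and 1.30 in cluster 5, in 4 classes of cell depth it was between 0.982 and 1.11, and it was 1.02 in G1 and 1.06 in S cells. The 34 G2M cells gave 1.70 from 6 cells with both mRNAs.

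From cells with no LTB UMI through those with 1, 2 to 4, 5 to 19 and 20 or more, the share with TNF was 38.4%, 38.6%, 40.3%, 40.8% and 45.4% (38.1 to 52.9 in the last, 185 cells). The TNF level over the same classes was 36.7, 36.9, 39.6, 42.3 and 42.9 CPM. In the other direction, the share with LTB was 47.8%, 49.7%, 49.2% and 54.1% (44.3 to 63.7, 109 cells) in cells with 0, 1, 2 and 3 or more TNF UMIs. The LTB level had no order over these classes, at 253, 331, 220 and 352 CPM. Across the 3163 cells, Pearson's r between the log-normalized values was 0.040, and it ran from -0.043 to 0.099 within clusters. All values come from cells of 1 library that share its depth and handling.

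**Figure D3:**
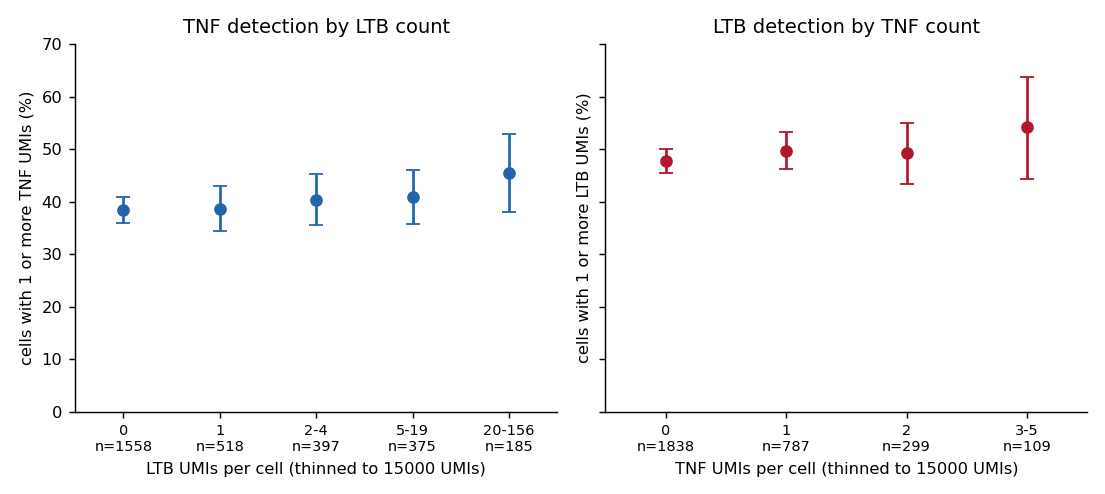
Share of cells with at least 1 TNF UMI by LTB count (left) and with at least 1 LTB UMI by TNF count (right), in percent, at 15000 UMIs per cell, with exact binomial 95% intervals and the number of cells under each class. TNF detection goes from 38.4% to 45.4% and LTB detection from 47.8% to 54.1%, with overlapping intervals at the ends.

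The values below are correlations across treated cells, given with no test. Among the 4382 other genes at 20 CPM or more, the 10 with the highest r with LTB were RPL3 at 0.277, GAS5 at 0.242, EEF1A1 at 0.233, METRN at 0.217, TMSB4X at 0.216, RPL10 at 0.210, RPS4X at 0.208, RPL13A at 0.195, TIMP1 at 0.186 and AC243964.3 at 0.183. They include 4 ribosomal protein genes, the elongation factor EEF1A1 and the noncoding host gene of small nucleolar RNAs GAS5. METRN encodes a secreted neurotrophic factor, TMSB4X an actin-binding peptide and TIMP1 an inhibitor of metalloproteinases. The r of METRN was between 0.138 and 0.211 in every cluster, while that of RPL3 ran from -0.150 to 0.344.

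These genes went with LTB count in steps, a direction set by their choice for a high r in the same cells. From cells without LTB to those with 20 or more UMIs at equal depth, RPL3 went from 3790 CPM (3765 to 3815) to 4837 (4756 to 4920), GAS5 from 371 (363 to 379) to 593 (564 to 622), METRN from 408 (400 to 417) to 591 (563 to 620) and TIMP1 from 167 (162 to 172) to 271 (252 to 291). The share of UMIs in ribosomal protein genes also went from 26.7% to 28.5%, and its part in the relation was not tested. Median depth before thinning was 21596.5 UMIs in cells without LTB and 22151 in the highest class. BIRC3, an apoptosis inhibitor of the TNF receptor complex, was at 32.2, 41.2, 44.3, 49.8 and 68.5 CPM over the 5 classes. In cells with 0, 1, 2 and 3 or more TNF UMIs, BIRC3 was at 36.5, 43.7, 49.7 and 38.5 CPM. NFKB2, the noncanonical NF-κB subunit, was at 39.6 CPM in cells without LTB and 57.7 CPM in the highest class. Over the 5 LTB classes NFKBIA had no steady order, at 1065, 1088, 1068, 1050 and 1119 CPM. RELB was at 25.6, 26.1, 33.4, 29.3 and 33.5 CPM, LTBR at 41.2, 40.5, 36.9, 35.6 and 39.6 CPM and TNFRSF1A at 49.6, 49.8, 39.6, 45.9 and 48.3 CPM, none of them in a steady order.

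The genes with the lowest r with LTB were SLC9A3R1 at -0.228, S100A9 at -0.210, GADD45GIP1 at -0.192, UQCC2 at -0.187 and OAZ1 at -0.186. S100A9 and its partner S100A8 encode calprotectin, an inflammatory calcium-binding complex. S100A9 itself was far higher in the cytokine library (6.52 and 4714 CPM), as was S100A8 (1.54 and 3426 CPM), yet within treated cells both were lower where LTB was higher. S100A9 was at 5598, 4986, 3785, 3274 and 2154 CPM from no LTB UMI to 20 or more, and S100A8 at 4129, 3677, 2715, 2405 and 1551 CPM. The direction of S100A9 over these classes was set by its choice for a low r in the same cells. The r of S100A9 with LTB was between -0.238 and 0.014 within clusters. With TNF, S100A9 and S100A8 had r of 0.008 and 0.016.

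For TNF the highest r were smaller: CXCL8 at 0.157, EFNA1 at 0.145, NFKBIA at 0.143, CCL2 at 0.127, LINC02015 at 0.110, ZC3H12A at 0.102, CEBPD at 0.098, IFNGR1 at 0.092, RPL12 at 0.088 and ZFP36L1 at 0.087. CXCL8 and CCL2 are chemokines, NFKBIA encodes the NF-κB inhibitor IκBα, and ZC3H12A and ZFP36L1 encode proteins that promote mRNA decay. Their levels by TNF count come from the same cells that gave the r, so a rise there adds no further support. In cells with 0, 1, 2 and 3 or more TNF UMIs, CXCL8 was at 88.4 (85.0 to 92.0), 120, 163 and 209 CPM (187 to 232). CCL2 was at 89.8, 138, 184 and 152 CPM, EFNA1 went from 75.9 to 120 CPM and ZC3H12A from 83.8 to 120 CPM. NFKBIA was at 1025, 1138, 1163 and 1120 CPM. The r of CXCL8 with LTB was -0.002, and LINC02015 had r of 0.110 with each. In counts as sparse as those of TNF such values are weak and are given as description.

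The lowest r with TNF were XBP1 at -0.082, FAM241A at -0.080, NUDT22 at -0.077, SLC25A4 at -0.075 and MICOS10 at -0.074. Of the 4381 genes other than LTB and TNF, 77 had r above 0.1 with LTB and 96 below -0.1, against 6 and 0 with TNF. The 100 genes with the highest r with each had 18 in common, 18% of each list, where such a list is 2.28% of all these genes. Of the 10 genes with the highest r with LTB, GAS5 ranked 31, RPL13A 37, RPL3 49 and EEF1A1 84 with TNF. RPL10 ranked 142, RPS4X 158 and TMSB4X 265. TIMP1 ranked 1893, METRN 2026 and AC243964.3 3038, with r of -0.003, -0.005 and -0.017 with TNF. Ribosomal protein genes made up 30 and 25 of the 100. Of 81 ribosomal protein genes, a set looked at after the values were seen, 63 (77.8%) had a positive r with LTB and 78 (96.3%) with TNF, against 34.4% and 38.3% of all 4381 genes.

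**Figure D4:**
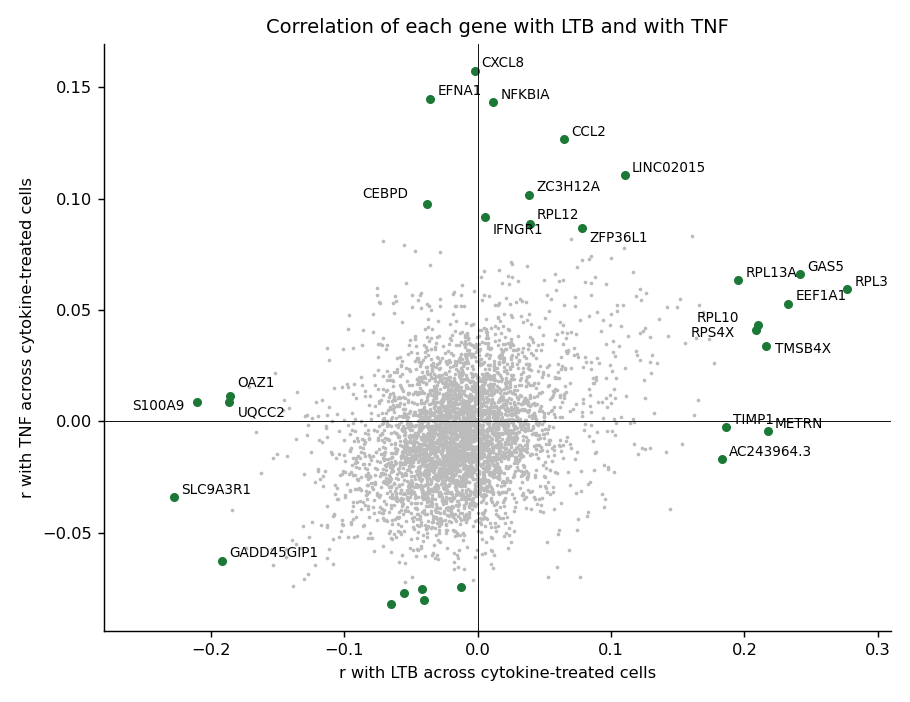
Pearson's r of each of 4381 genes with LTB (horizontal axis) and with TNF (vertical axis) across 3163 cytokine-treated cells. Green points are the 10 highest and 5 lowest genes for either, labeled except for the 5 lowest with TNF: the LTB group (RPL3, 0.277) lies to the right and the TNF group (CXCL8, 0.157) at the top near an r of 0 with LTB.

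The tryptophan-catabolism genes on which the study centered were higher in the cytokine library and had low r with either ligand. TDO2, which opens the kynurenine pathway, was at 9.30 and 563 CPM in vehicle and cytokine libraries, KMO at 9.32 and 243 CPM and KYNU at 4.08 and 69.9 CPM. Their r with LTB was -0.032, -0.018 and 0.013, and with TNF -0.011, 0.057 and 0.052. With TNF, where the highest r was 0.157, KMO ranked 56 and KYNU 92 of 4382 genes. From cells without LTB to those with 20 or more LTB UMIs, TDO2 was at 560, 527, 500, 539 and 457 CPM. In cells with 0, 1, 2 and 3 or more TNF UMIs it was at 542, 514, 540 and 626 CPM. Neither was a steady order. CCL2 was at 1.95 and 113 CPM in the libraries and had r of 0.065 with LTB. IDO1 had 7 and 4 UMIs and was not measured at the 5 CPM limit. This gene set was drawn from the study on these samples, so its direction between libraries is not independent evidence. The rest of this account gives log2 ratios of cytokine over vehicle library, set against a median of -0.20 over all measured genes. Of the 9192 measured genes, 4.29% were called higher and 7.48% lower, the background for the counts below. A gene under 5 CPM in vehicle was measured only through the cytokine library and so could only be higher there, and counts and medians that hold such genes are given as description.

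Of 18 listed TNF superfamily ligands, LTB and TNF included, 7 were in the table and 4 were measured. Besides LTB and TNF, TNFSF10 was called higher and TNFSF13 was not called. TNFSF10, the death ligand TRAIL, was at 7.90 and 34.2 CPM, a log2 ratio of 2.11 (1.97 to 2.26). TNFSF13, the B-cell factor APRIL, was at 8.16 and 16.2 CPM, a log2 ratio of 0.99 (0.84 to 1.15). TNFSF15 stayed under the limit, with 10 and 243 UMIs.

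The receptors were less different. Of 29 listed, 6 were measured and 1 was called higher, TNFRSF12A, the receptor of TWEAK, at 221 and 528 CPM (log2 ratio 1.26), with a list median of 0.08. LTBR was at 42.5 and 38.9 CPM, a log2 ratio of -0.13 (-0.21 to -0.05) that turned to 0.05 with TMM and 0.06 with median-of-ratios scaling. TNFRSF1A was at 39.2 and 48.1 CPM, a log2 ratio of 0.30 (0.22 to 0.37). TNFRSF1B was not analysed here. Both LTBR and TNFRSF1A were thus present as mRNA in either library.

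Genes that act below these receptors were split. Of the 10 NF-κB subunits and IκB proteins, all measured, 6 were higher and none lower, against 4.29% and 7.48% of all measured genes. Their median log2 ratio was 1.71, and RELB, NFKB2, NFKBIZ and REL were under 5 CPM in vehicle. The 6 were RELB at 0.290 and 28.3 CPM (log2 ratio 6.61), NFKBIA at 79.4 and 1069 CPM (3.75), NFKB2 at 3.77 and 42.7 CPM (3.50), NFKBIZ at 2.55, NFKBIE at 2.04 and REL at 1.38 on the log2 scale. RELA and NFKB1 had log2 ratios of -0.07 and 0.10. Of 23 measured receptor-proximal signaling genes, 6 were higher and none lower, with a median of -0.20: BIRC3 (log2 ratio 6.58), the ubiquitin-editing enzyme TNFAIP3 (6.28), its partner TNIP1 (1.80), TRAF3 (1.31), the deubiquitinase CYLD (1.17) and CFLAR (1.02). BIRC3 and TNFAIP3 were under 5 CPM in vehicle. The kinase genes CHUK and IKBKB had log2 ratios of -0.86 and -0.20.

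**Figure D5:**
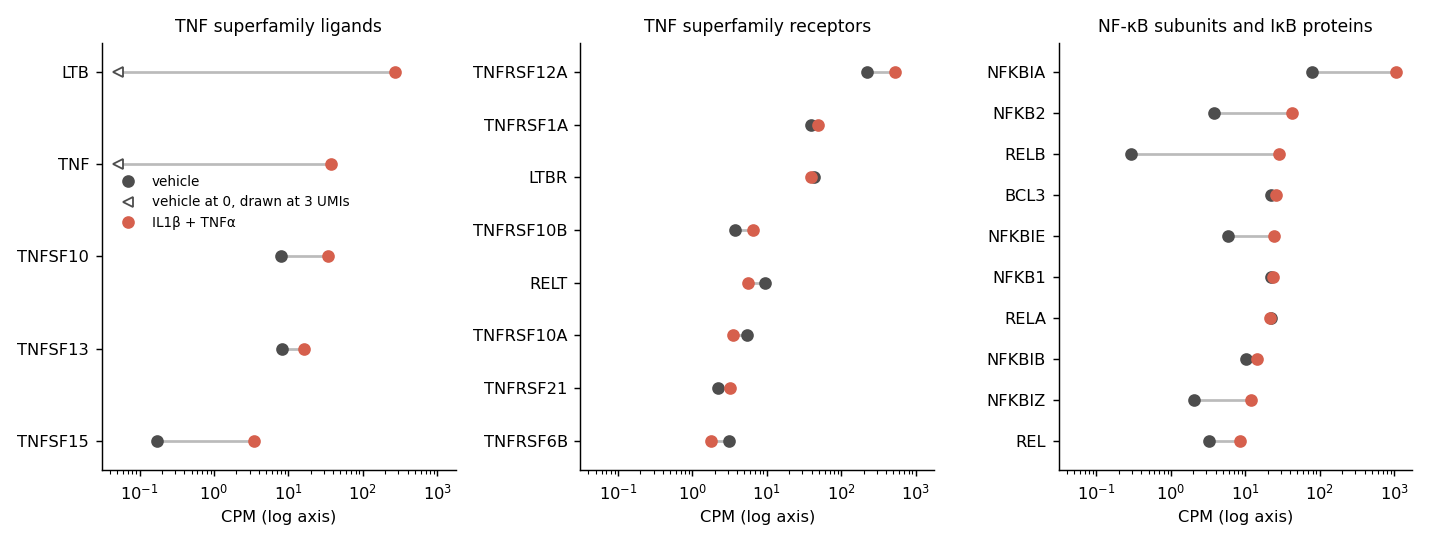
Level in CPM on a log axis in the vehicle (gray) and cytokine (red) libraries for TNF superfamily ligands, receptors and NF-κB subunits with IκB proteins that reached 1 CPM in either library. LTB and TNF had 0 UMIs in vehicle and are drawn there as open triangles at the level of 3 UMIs, while LTBR stayed near 40 CPM (42.5 and 38.9).

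Of 13 genes listed as targets of LTBR signaling, which also respond to other NF-κB stimuli, 7 were in the table and 4 were measured, each of them under 5 CPM in vehicle, so that their direction was set by the filter. These were the chemokine CXCL2, with 3 and 809 UMIs (log2 ratio 7.83), ICAM1, an adhesion molecule, at 1.45 and 12.3 CPM (3.08), and RELB and NFKB2 given above. CCL20 had 0 and 146 UMIs, below the limit, and was at least 41.0-fold higher. MADCAM1 and TNFSF13B, also below the limit, had log2 ratios of 0.92 (0.49 to 1.37) and -0.54 (-1.33 to 0.24). No gene of TNF shedding and processing was called among 7 measured (median log2 ratio -0.24), and ADAM17 was at 12.7 and 14.6 CPM (0.20, 0.06 to 0.34). Most measured genes, 8110 of 9192, were likewise not called.

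Of 11 genes whose products act on AU-rich or stem-loop elements such as those of TNF mRNA, 2 were higher and 1 lower, with a median of -0.36. ZC3H12A, the endonuclease Regnase-1, was at 6.14 and 90.7 CPM (log2 ratio 3.88), ZFP36 at 45.9 and 99.5 CPM (1.12) and ZFP36L2 at 269 and 78.9 CPM (-1.77). Both ZC3H12A and ZFP36L1 were among the 10 genes with the highest r with TNF, at 0.102 and 0.087.

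No other measured gene of the locus was called, and of all 9192 measured genes 8110 were likewise not called. Of 20 genes listed in or next to the MHC class III region, 11 were measured. LTB and TNF were the 2 called higher, and none was called lower. With no vehicle UMI, LTB and TNF were measured only through the cytokine library, so their direction was set by the filter. The other 9 had log2 ratios from PRRC2A at -0.62 to MICA at 0.39. LST1, which starts 3601 bases beyond LTB, had 0 and 29 UMIs, or 0.417 CPM with cytokines. It was below the limit of 5 CPM and at least 8.14-fold higher. NFKBIL1 and DDX39B, on the far side of LTA, had log2 ratios of 0.13 and 0.13.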

How the data were processed

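MDA-MB-453 cells under vehicle or IL1β + TNFα were analysed as 1 library each. Per the study's methods, the authors made the deposited UMI counts with Cell Ranger 3.1.0 on GRCh38, removed rarely detected genes and cells of extreme UMI, gene or mitochondrial content, and called phases in Seurat 4.0.4. How the clusters were made is not given in the sources used here, nor is a doublet step, and no doublets were called here. The deposited mitochondrial percent per cell was used as given. Library depth and cell numbers stand in the results.

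Counts were summed per library and divided by total UMIs (CPM). CPM intervals are exact Poisson, log2 ratios exact conditional binomial and shares Clopper-Pearson. A gene was measured at 5 CPM in either library. Cells were thinned to 15000 UMIs without replacement, which left out 236 vehicle and 130 cytokine cells. Correlations used ln(1 + 10000 x fraction of UMIs). The steps, run with numpy 2.4.6 and scipy 1.17.1, were tested on simulated data. TMM (edgeR 4.0.16) and median-of-ratios (DESeq2 1.42.0) served only as alternative scalings. Promoters of both genes were matched by symbol in RefSeq (GRCh38.p14), and gene positions and 3′ ends come from GENCODE 44, which may differ from the annotation used for counting.

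Named genes were LTB, TNF, their receptors, LTA and ADAM17, up to 6 called members of each list, the study's genes, and the 10 highest and 5 lowest correlations with each. Other genes are named with their values as context. LTB and TNF and the lists were chosen with earlier results of these data known.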

Additional observations from a re-analysis of the deposited data

How the results depend on the processing

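Of 51 alternative values, 29 stayed within the counting interval of the reported value or, for counts of genes, within 1.5 times of it, and 22 moved. The cluster order of TNF was not stable: clusters 4 and 5 were highest and lowest as reported, clusters 1 and 3 as thinned shares, and clusters 2 and 3 without the 1% of cells with the most TNF. The least fold of LTB (5336) was 6033 with TMM, 6099 with median-of-ratios scaling, 5143 with totals that leave out ribosomal and mitochondrial genes and 1820 in G1 cells, where the vehicle floor rests on fewer UMIs. That of TNF (734) was 830, 839 and, in G1 cells, 249. Detection depended on depth: thinned to 7500 UMIs, unthinned, and at 2 or more UMIs, the share was 36.8%, 54.1% and 31.6% for LTB and 24.2%, 49.5% and 13.5% for TNF. The highest over the lowest cluster for LTB (8.02) was 1.49 as thinned shares and, in alternatives chosen after seeing the data, 6.13 without the 1% of cells with the most LTB and 2.02 without cluster 5. The phase ratio of LTB (1.59) was 1.15 as thinned shares. The joint ratio (1.03) was 1.11 at 2 or more UMIs. Genes called higher and lower (394 and 688, 36.4% higher) were 660 and 1060 at 1 CPM or more and 221 and 336 at 20 CPM or more. TMM and median-of-ratios scaling shifted all log2 ratios by 0.18 and 0.19, called 526 and 539 genes higher and 499 and 491 lower (51.3% and 52.3% higher), and added TNFSF13 to the higher ligands. Of the 10 genes with the highest r, 9 remained for LTB with Spearman's rho, in thinned cells and in G1 cells, and 9, 8 and 9 for TNF. No paired analysis was possible because the result comes from no test and each condition has 1 library. With no second culture, library and treatment cannot be told apart.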
